A study of Homo sapiens with 8 samples.

Results

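Transcripts of secreted factors that draw neutrophils, monocytes and other leukocytes were followed in 8 RNA-seq libraries of human breast epithelial cells. The genes were *CXCL1*, *CXCL2*, *CXCL3*, *CXCL5*, *CXCL8*, *CXCL16*, *CCL20*, *CCL28* and *CSF2*, taken by symbol from a table of 13842 genes. They are 9 of the 10 genes listed for this group, and the tenth, *CCL2*, was not analysed here. MCF10A is an immortalized, non-malignant breast epithelial line, and DCIS.COM is a line that forms lesions resembling ductal carcinoma in situ (DCIS). Each line was stably transduced with the lentiviral vector pLOC-empty or with pLOC-*MALINC1*, which carries the long non-coding RNA *MALINC1*, giving 4 groups of 2 libraries. Both vectors were selected with 10 µg/ml blasticidin, so the control cells had passed through transduction and selection as well. MCF10A grew with EGF, hydrocortisone, insulin, cholera toxin and horse serum, whereas DCIS.COM received horse serum alone, so line and medium cannot be told apart. The comparisons ask how these transcripts responded to *MALINC1* in each line, and how the lines differed.

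Chemokines are small secreted proteins that guide leukocytes along a gradient through G protein-coupled receptors. Those of the CXC class that carry the ELR motif before their first cysteines, here *CXCL1*, *CXCL2*, *CXCL3*, *CXCL5* and *CXCL8*, bind CXCR2, and *CXCL8* also binds CXCR1 well; they mainly attract neutrophils. *CXCL16* attracts CXCR6-bearing T cells, *CCL20* attracts CCR6-bearing dendritic cells and lymphocytes, and *CCL28* is a mucosal epithelial chemokine abundant in the lactating breast. *CSF2* encodes GM-CSF, a growth factor for granulocytes and macrophages rather than a chemokine. In epithelium many of these genes are induced by interleukin-1 and TNF through NF-κB and AP-1.

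The 5 ELR genes lie in the chemokine cluster on chromosome 4. In GRCh37, the assembly also called hg19 that the authors used, they span 74606236 to 74609433 for *CXCL8*, 74735110 to 74737025 for *CXCL1*, 74861359 to 74864394 for *CXCL5*, 74902306 to 74904524 for *CXCL3* and 74962757 to 74964913 for *CXCL2*. *CXCL8* and *CXCL1* are on the plus strand and *CXCL5*, *CXCL3* and *CXCL2* on the minus strand. Their proximal promoters are shown because these neighbouring genes share a motif. The stretches run from −150 to 10 around the RefSeq transcription start, at chr4:74734960-74735119 (plus strand) for *CXCL1*, chr4:74964903-74965062 (minus) for *CXCL2*, chr4:74904397-74904556 (minus) for *CXCL3*, chr4:74864385-74864544 (minus) for *CXCL5* and chr4:74606136-74606295 (plus) for *CXCL8*. The sequences come from the RefSeq promoter table (GRCh38.p14) and were placed in GRCh37 by exact match. Capitals mark GGANTTTCC, the core searched for NF-κB, TGANTCA for AP-1 and TATAAA for the TATA box, each searched on both strands.
CXCL1: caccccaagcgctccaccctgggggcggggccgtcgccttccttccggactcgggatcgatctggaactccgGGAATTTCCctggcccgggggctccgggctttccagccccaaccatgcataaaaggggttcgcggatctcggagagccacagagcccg
CXCL2: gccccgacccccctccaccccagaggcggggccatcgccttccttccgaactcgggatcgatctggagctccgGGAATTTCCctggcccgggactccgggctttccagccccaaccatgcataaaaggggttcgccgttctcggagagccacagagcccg
CXCL3: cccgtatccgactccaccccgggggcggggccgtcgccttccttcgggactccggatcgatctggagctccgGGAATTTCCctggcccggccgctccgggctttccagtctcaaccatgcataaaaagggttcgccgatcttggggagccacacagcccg
CXCL5: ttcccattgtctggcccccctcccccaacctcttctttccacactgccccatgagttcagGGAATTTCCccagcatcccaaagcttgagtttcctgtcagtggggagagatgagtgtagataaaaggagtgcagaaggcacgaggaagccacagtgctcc
CXCL8: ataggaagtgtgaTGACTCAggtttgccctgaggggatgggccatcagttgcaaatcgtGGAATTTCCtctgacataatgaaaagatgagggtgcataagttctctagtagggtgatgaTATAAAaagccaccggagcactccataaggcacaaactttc

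All 5 ELR promoters held the same letters, GGAATTTCC, with the first base at −78 in *CXCL1*, −77 in *CXCL2*, −78 in *CXCL3*, −90 in *CXCL5* and −91 in *CXCL8*. The core was found in 5 of the 9 promoter windows of these genes, each of 300 bases, and in 1.64% of 35116 RefSeq promoters. Both shares depend on the exact letters chosen for the search, and enrichment was not tested. *CCL28* contributes 2 windows, 1 for each of its annotated starts, and *CXCL16* none. *CXCL8* alone held an AP-1 match, TGACTCA at −137, a motif present in 7.71% of all promoters. A TATAAA match was found in *CXCL8* at −31 and *CCL20* at −29, against 11.5% of all promoters. The promoters of *CXCL1*, *CXCL2* and *CXCL3* were near copies of each other over the printed stretch, with 90.0% identity between *CXCL1* and *CXCL2*, 88.8% between *CXCL1* and *CXCL3* and 86.9% between *CXCL2* and *CXCL3*. Identity of these to *CXCL5* was 53.1% to 56.9%, and to *CXCL8* 46.9% to 48.8%. The matches in *CXCL1*, *CXCL2* and *CXCL3* are therefore not independent of each other. No letters other than GGANTTTCC, TGANTCA and TATAAA were searched, so a window without a match may still hold an NF-κB, AP-1 or TATA site. A match describes letters and not binding, which was not measured.

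**Figure D1:**
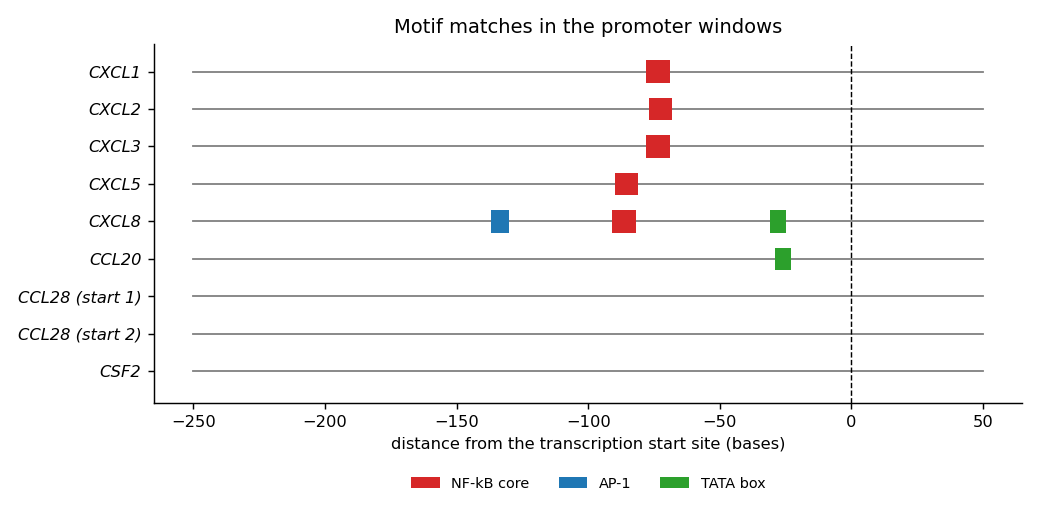
Motif matches in the 300-base promoter windows, plotted by distance from the transcription start (bases, dashed line at 0); grey lines are the windows and coloured blocks the matches. The searched NF-κB core, GGANTTTCC, sits between −91 and −77 in the 5 ELR chemokine genes and in none of the other windows. No other letters were searched for NF-κB, and only TGANTCA for AP-1 and TATAAA for the TATA box, so a window without a match may still hold a site.

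The vectors and the cells were checked first. Levels are read counts scaled to library size and to 1000000 reads (CPM). *MALINC1* rose from 1.25 ± 0.357 to 12.5 ± 1.05 CPM in MCF10A and from 1.25 ± 0.146 to 21.8 ± 3.76 CPM in DCIS.COM (mean ± SD, n = 2 in each group). Libraries held 20604377 to 37550457 reads on genes, and 1 read was worth 0.0279 to 0.0477 CPM. All 8 genes listed for basal breast epithelium were in the table, though *CDH1* and *EPCAM* among them are general epithelial genes. With pLOC-empty 2 were called higher and 5 lower in DCIS.COM than in MCF10A, beside 15.6% higher and 13% lower among all genes. The keratins *KRT5* (1069 against 6149 CPM), *KRT14* (33.0 ± 0.791 against 1452 ± 38.9 CPM) and *KRT17* (970 against 9985 CPM) were lower. *TP63* (56.6 ± 1.13 against 4.92 ± 0.450 CPM) and *EPCAM* (280 against 62.2 CPM) were higher. With *MALINC1* 2 of the 8 rose in MCF10A, *KRT14* (log2 fold change 1.01) and *TP63* (4.92 to 40.9 CPM, 3.04), and none was called in DCIS.COM. Of 6 luminal markers 5 were in the table, and with pLOC-empty 3 were called higher in DCIS.COM and none lower. They were *KRT18* (1587 against 505 CPM), *KRT8* (1852 against 813 CPM) and *FOXA1* (25.3 against 9.27 CPM). None of the luminal markers was called with *MALINC1* in either line. Of 16 leukocyte markers only *CD14*, *CD68* and *ITGB2* were in the table, and *PTPRC* and the other 12 were not analysed here. Their summed level was 44.5 to 45.0 CPM in MCF10A pLOC-empty, 20.3 to 21.2 in MCF10A pLOC-*MALINC1*, 9.50 to 11.2 in DCIS.COM pLOC-empty and 8.28 to 8.56 in DCIS.COM pLOC-*MALINC1*. *ITGB2* is an integrin chain typical of leukocytes. With *MALINC1* it fell from 30.6 to 7.45 CPM in MCF10A (log2 fold change −2.03) and from 6.20 to 0.411 CPM in DCIS.COM (−3.69). *CD14* and *CD68* were not called in either line, but both were higher with *MALINC1* in DCIS.COM, short of 2-fold. There the log2 fold change was 0.96 for *CD68* (limma adjusted p = 8.21e-06) and 0.71 for *CD14* (limma adjusted p = 0.00571). In MCF10A *CD14* was higher (0.55, limma adjusted p = 0.0194) and *CD68* lower (−0.31, limma adjusted p = 0.0215). The part of the basal, luminal and leukocyte markers in the chemokine results was not tested. In bulk RNA, fewer cells making a transcript and less transcript per cell cannot be told apart.

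With *MALINC1*, 4 of the 9 genes rose in MCF10A and none fell, whereas 3 fell in DCIS.COM and none rose. A gene was called changed at an adjusted p below 0.01 (limma, Benjamini-Hochberg over all 13842 genes) and a change over 2-fold. Under this rule 2.99% of all genes were called higher and 2.51% lower in MCF10A, and 1.44% higher and 3.08% lower in DCIS.COM. *CXCL1*, *CXCL5*, *CXCL8* and *CCL28* rose in MCF10A, and *CXCL3*, *CCL20* and *CSF2* fell in DCIS.COM. Leaving out the gene with both groups at 3 reads or fewer per library (*CSF2* in MCF10A, *CXCL5* in DCIS.COM), the median log2 fold change of the other 8 genes was 0.93 in MCF10A and −0.51 in DCIS.COM, beside medians of 0.00 and 0.01 over all genes. Each log2 fold change below carries its standard error (SE), and no label says that the libraries of a group were separate cultures, so p-values measure the spread between these libraries, which may be technical. That spread is in large part borrowed from other genes, with 7.98 prior against 4 residual degrees of freedom in the limma fit.

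**Figure D2:**
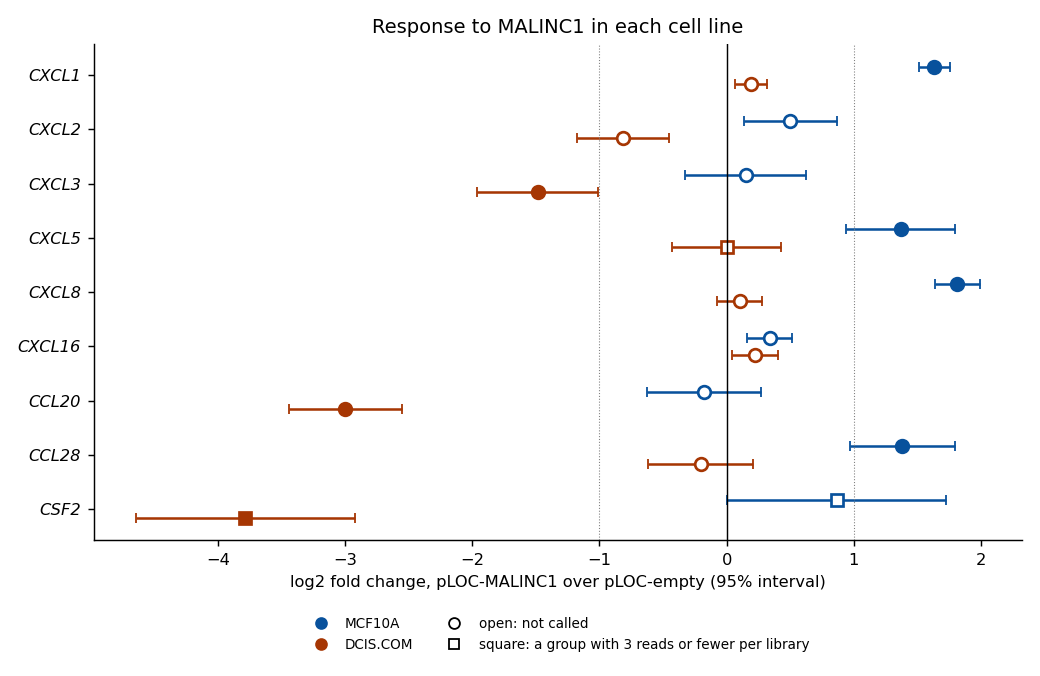
Log2 fold change of each gene, pLOC-*MALINC1* over pLOC-empty, in MCF10A (blue) and DCIS.COM (brown), with 95% intervals from the limma fit. Filled symbols passed the call rule, open symbols did not, squares have a group with 3 reads or fewer in each library, and dotted lines mark 2-fold; the filled MCF10A symbols lie to the right and the filled DCIS.COM symbols to the left.

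*CXCL1*, a neutrophil attractant, measured 11.7 and 12.3 CPM with pLOC-empty in MCF10A, against 37.7 and 37.1 CPM with pLOC-*MALINC1*. In DCIS.COM it measured 271 and 236 CPM with pLOC-empty and 294 and 285 CPM with pLOC-*MALINC1*. All DCIS.COM libraries stood far above all MCF10A libraries, and within each line the vector groups did not overlap. The rise in MCF10A was 3.12-fold on mean CPM (log2 fold change 1.63, SE 0.057, limma adjusted p = 4.86e-10). In DCIS.COM the ratio was 1.14 (log2 fold change 0.19, SE 0.057, limma adjusted p = 0.0150), which was not called. The response thus differed between the lines by −1.44 on the log2 scale, DCIS.COM minus MCF10A (SE 0.081, limma adjusted p = 2.73e-08). Per kilobase of exon, *CXCL1* had the highest level of the 9 genes in all 4 groups, from 8.81 CPM per kb in MCF10A pLOC-empty to 213 in DCIS.COM pLOC-*MALINC1*.

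*CXCL8*, which encodes interleukin-8, followed the same order. MCF10A held 2.66 and 2.61 CPM with pLOC-empty and 9.33 and 9.56 CPM with pLOC-*MALINC1*. DCIS.COM held 132 and 109 CPM with pLOC-empty and 134 and 124 CPM with pLOC-*MALINC1*. The vector groups were well apart in MCF10A and overlapped in DCIS.COM. *CXCL8* rose 3.59-fold in MCF10A (log2 fold change 1.81, SE 0.082, limma adjusted p = 5.22e-09), the highest fold there among the genes above 3 reads per library. In DCIS.COM the log2 fold change was 0.10 with a 95% interval of −0.08 to 0.28 (limma adjusted p = 0.340), and it was −0.040 without pLOC-empty library 2. The difference between the responses was −1.71 (SE 0.12, limma adjusted p = 1.76e-07).

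*CXCL5*, an epithelial neutrophil attractant, was detected in MCF10A only. It measured 10.6 and 10.8 CPM with pLOC-empty and 27.9 and 27.5 CPM with pLOC-*MALINC1*, and 0 reads in all 4 DCIS.COM libraries. A count of 0 allows up to 3 reads, or 0.0874 to 0.143 CPM in a DCIS.COM library, for counting error only. In MCF10A it rose 2.59-fold (log2 fold change 1.37, SE 0.20, limma adjusted p = 0.000100). This SE follows the spread of other genes at its mean level, and was 0.037 when limma fitted no such trend. With DCIS.COM at 0, the fitted difference between the responses (−1.37, SE 0.28, limma adjusted p = 0.00149) is the MCF10A rise alone. That call was lost when either MCF10A pLOC-*MALINC1* library was left out, at limma adjusted p = 0.0110 without library 1 and 0.0105 without library 2. An annotated antisense gene overlaps *CXCL5*, and 8.47% of the 76-nt windows of its exons also occur in other genes, nearly all in that one.

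*CXCL2* and *CXCL3*, the close paralogs of *CXCL1*, were low and moved otherwise. *CXCL2* measured 2.07 and 2.26 CPM in MCF10A pLOC-empty, 2.87 and 3.32 with pLOC-*MALINC1*, 4.85 and 3.91 in DCIS.COM pLOC-empty, and 2.62 and 2.28 with pLOC-*MALINC1*. The groups did not overlap in either line, and the order of the vectors was opposite between the lines. The log2 fold change was 0.50 in MCF10A (SE 0.17, limma adjusted p = 0.0237) and −0.82 in DCIS.COM (SE 0.17, limma adjusted p = 0.00163), both under 2-fold and not called. The difference between these responses was called, at −1.32 (SE 0.24, limma adjusted p = 0.000596).

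*CXCL3* measured 1.10 and 1.46 CPM in MCF10A pLOC-empty and 1.37 and 1.47 CPM with pLOC-*MALINC1*, and these groups overlapped. In DCIS.COM it measured 2.75 and 2.005 CPM with pLOC-empty, and 0.786 and 0.798 CPM, 27 reads in each library, with pLOC-*MALINC1*. Both DCIS.COM pLOC-*MALINC1* libraries were below all others. The fall in DCIS.COM was 3.002-fold on mean CPM (log2 fold change −1.49, SE 0.22, limma adjusted p = 0.000144), and −0.91, under 2-fold, at a pseudocount of 1 CPM. In MCF10A the log2 fold change was 0.15, with a 95% interval of −0.33 to 0.63 (limma adjusted p = 0.592), and −0.041 without pLOC-empty library 1. The responses differed by −1.64 (SE 0.31, limma adjusted p = 0.000884). Reads of *CXCL2* and *CXCL3* may be split in part, since 7.42% of the 76-nt windows of *CXCL2* exons and 4.52% of those of *CXCL3* occur in another gene, against 0.155% for *CXCL1* and 0 for *CXCL8*.

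**Figure D3:**
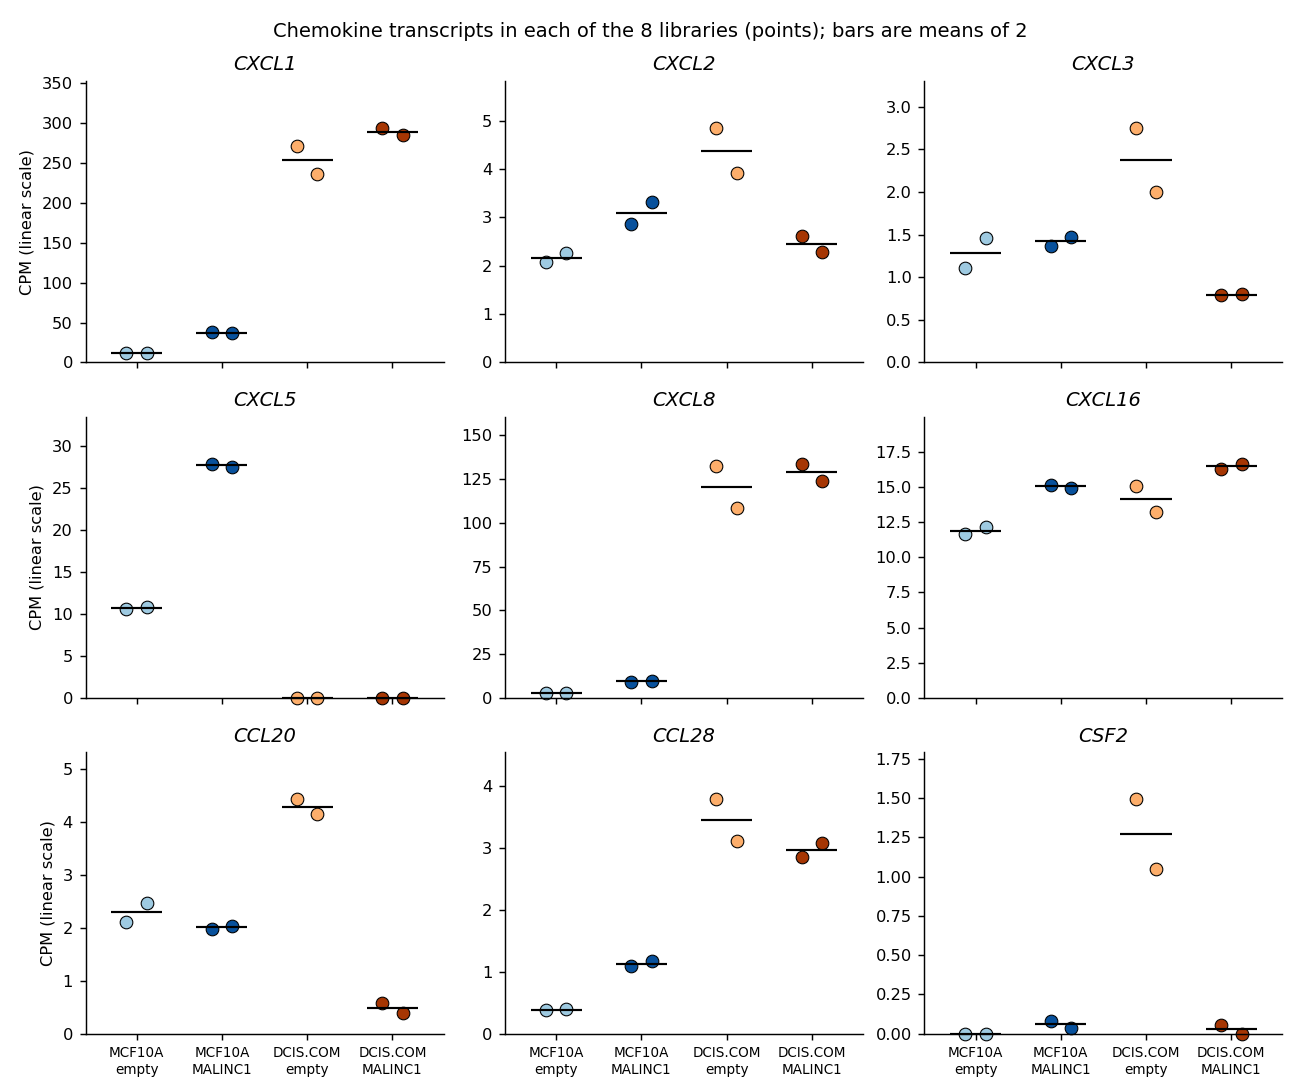
CPM on a linear axis from 0, scaled separately for each gene, in the 4 groups; points are libraries and bars the means of 2. *CXCL1* and *CXCL8* are high in all DCIS.COM libraries, *CXCL5* is at 0 there, and *CXCL3*, *CCL20* and *CSF2* are lower in DCIS.COM with *MALINC1* than with the empty vector.

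*CCL20*, the ligand of CCR6 (chromosome 2, 228670455 to 228682280, plus strand), had the steepest fall in DCIS.COM among the genes with more than 3 reads per library in both groups. It measured 4.43 and 4.15 CPM with pLOC-empty and 0.583 and 0.384 CPM with pLOC-*MALINC1*, that is 95 and 87 reads against 20 and 13 reads. In MCF10A it measured 2.10 and 2.48 CPM with pLOC-empty and 1.98 and 2.04 CPM with pLOC-*MALINC1*. DCIS.COM thus held both the highest and the lowest libraries. The fall was 8.88-fold on mean CPM (log2 fold change −2.998, SE 0.20, limma adjusted p = 2.05e-07). The MCF10A log2 fold change was −0.18, with a 95% interval of −0.63 to 0.27 (limma adjusted p = 0.488). The difference between the responses was −2.82 (SE 0.29, limma adjusted p = 6.62e-06).

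*CSF2* (chromosome 5, 131409482 to 131411863, plus strand) was counted above 3 reads only in DCIS.COM with the empty vector, at 32 and 22 reads, or 1.49 and 1.05 CPM. It had 0 reads in both MCF10A pLOC-empty libraries, 3 and 1 reads in MCF10A pLOC-*MALINC1*, and 2 and 0 reads in DCIS.COM pLOC-*MALINC1*. It was therefore at least 14.4-fold lower in DCIS.COM with *MALINC1*, against a floor of 3 reads per library (limma adjusted p = 8.35e-06). No fold is given for MCF10A, where both groups were at the floor. The difference between the responses was called (limma adjusted p = 2.52e-05), with a fitted log2 value of −4.65 that depends on the prior count and is no bound.

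*CCL28* (chromosome 5, 43376747 to 43412493, minus strand) showed the reverse pattern to *CCL20*, with a call in MCF10A and none in DCIS.COM. It measured 0.379 and 0.398 CPM in MCF10A pLOC-empty, or 11 and 9 reads, and 1.09 and 1.17 CPM with pLOC-*MALINC1*, or 39 and 31 reads. DCIS.COM held 3.78 and 3.10 CPM with pLOC-empty and 2.85 and 3.07 CPM with pLOC-*MALINC1*, groups that were close but did not overlap. The rise in MCF10A was 2.90-fold on mean CPM (log2 fold change 1.38, SE 0.19, limma adjusted p = 6.40e-05). With so few reads the size depends on the pseudocount, and the change was 0.87 at 0.5 CPM and 0.62 at 1 CPM, under 2-fold. In DCIS.COM the log2 fold change was −0.20, with a 95% interval of −0.62 to 0.21 (limma adjusted p = 0.406). The responses differed by −1.59 (SE 0.27, limma adjusted p = 0.000374).

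*CXCL16*, a chemokine that is made as a membrane protein and shed, was the most even of the 9 genes. Its libraries read 11.6 and 12.1 CPM in MCF10A pLOC-empty, 15.2 and 14.9 with pLOC-*MALINC1*, 15.1 and 13.2 in DCIS.COM pLOC-empty, and 16.3 and 16.6 with pLOC-*MALINC1*. The MCF10A pLOC-*MALINC1* and DCIS.COM pLOC-empty groups overlapped. The log2 fold change was 0.34 in MCF10A (SE 0.082, limma adjusted p = 0.00425) and 0.22 in DCIS.COM (SE 0.082, limma adjusted p = 0.0423), both well under 2-fold. The difference between the lines was −0.12, with a 95% interval of −0.37 to 0.14 (limma adjusted p = 0.435). *CXCL16* lies at 4636828 to 4643223 on the minus strand of chromosome 17 and overlaps *MED11* and *ZMYND15* on the other strand, and the strand setting of the counting was not given in the sources used here.

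The test of the difference in response called 8 of the 9 genes, all lower in DCIS.COM, while 5.22% of all genes were called lower and 3.98% higher. For *CXCL5* and *CSF2* this difference restates the change in 1 line, since the other line was at the floor with both vectors. Of the 7 genes above the floor in both lines, 6 were called lower and *CXCL16* was not called. The median of these 7 genes was −1.59, against −0.01 over all genes. The responses of the 2 lines come from separate libraries, whereas the difference uses all 8 and is not independent of either response. The comparisons of the lines below use the same libraries again.

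Between the lines with the empty vector, 4 of the 9 genes were called higher in DCIS.COM and 1 lower, beside 15.6% higher and 13% lower among all genes. *CXCL1* was 21.1-fold higher in DCIS.COM (log2 fold change 4.39, SE 0.057, limma adjusted p = 6.27e-15) and *CXCL8* 45.8-fold higher (5.47, SE 0.082, limma adjusted p = 2.04e-14). *CCL28* was 8.85-fold higher (2.93, SE 0.19, limma adjusted p = 1.29e-08), and *CSF2* was at least 10.8-fold higher (limma adjusted p = 5.26e-07). *CXCL5* was at least 75.4-fold lower (limma adjusted p = 3.37e-12). *CXCL2*, *CXCL3* and *CCL20* had log2 values of 0.99, 0.85 and 0.89, just under the 2-fold limit, and without MCF10A pLOC-empty library 2 all of these passed it, at 1.05, 1.04 and 1.004. Without DCIS.COM pLOC-empty library 2, *CXCL2* (1.14) and *CXCL3* (1.07) passed it.

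With *MALINC1* in both lines, 3 genes were called higher in DCIS.COM and 2 lower, beside 14.4% and 12.2% of all genes. *CXCL1* was 7.74-fold higher (log2 fold change 2.95, SE 0.057), *CXCL8* 13.6-fold higher (3.76, SE 0.082) and *CCL28* 2.63-fold higher (1.34, SE 0.19). The *CCL28* value fell just under 2-fold with quantile normalization (0.99) and at a pseudocount of 1 CPM (0.90). *CXCL5* was at least 314-fold lower and *CCL20* 4.16-fold lower (−1.93, SE 0.20, limma adjusted p = 1.91e-06). *CXCL3* had a log2 value of −0.79 (SE 0.22, limma adjusted p = 0.00526), under 2-fold and of the opposite sign to its value with the empty vector. *CSF2* was at the floor in both groups. Scaling the libraries without their 10 largest genes moved the median of all genes to 0.11 with the empty vector and 0.15 with *MALINC1* in these comparisons between lines.

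**Figure D4:**
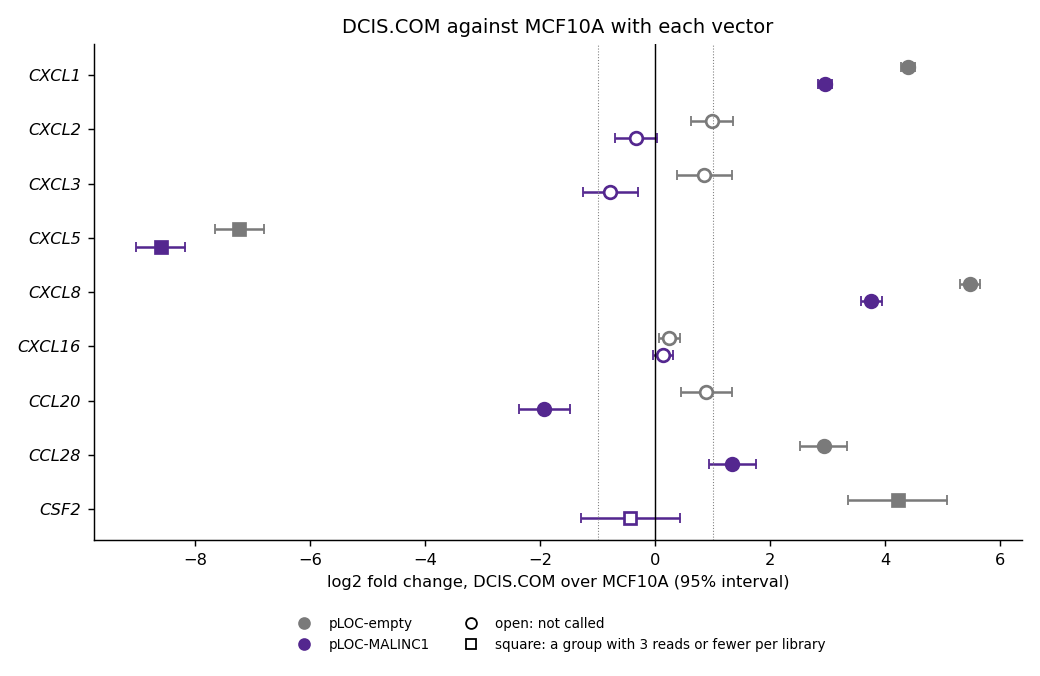
Log2 fold change of each gene, DCIS.COM over MCF10A, with pLOC-empty (grey) and pLOC-*MALINC1* (purple) and 95% intervals from the limma fit; filled symbols were called, and squares have a group with 3 reads or fewer in each library. *CXCL1*, *CXCL8* and *CCL28* lie above 2-fold with both vectors and *CXCL5* lies far to the left with both, while *CCL20* is called with *MALINC1* only.

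Ranked by level per kilobase of exon, *CXCL1*, *CXCL5* and *CXCL16* led in MCF10A pLOC-empty, at 8.81, 4.38 and 4.25 CPM per kb. With *MALINC1* they stood at 27.5, 11.4 and 5.38 CPM per kb. In DCIS.COM pLOC-empty the leaders were *CXCL1*, *CXCL8* and *CXCL16*, at 186, 46.6 and 5.06 CPM per kb, and with *MALINC1* they stood at 213, 49.8 and 5.89. The leading neutrophil attractant after *CXCL1* was thus *CXCL5* in MCF10A and *CXCL8* in DCIS.COM. The low genes *CXCL3*, *CCL28* and *CSF2* were at 1.61 CPM per kb or less in every group.

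The receptors and other ligands were read from lists of related genes. Only 4 of 22 chemokine and colony-stimulating factor receptors were in the table, and the others, with CXCR2 among them, were not analysed here. With the empty vector 2 of the 4 were called higher in DCIS.COM than in MCF10A and 2 lower. The higher receptors were *CCR1* (2.88 ± 0.515 against 0.0960 ± 0.0105 CPM) and *CSF2RA*, a chain of the GM-CSF receptor (2.60 ± 0.109 against 0.453 ± 0.140 CPM), both named after their values were seen. *CXCR1*, named because it binds CXCL8 and chosen after its values were seen, stood in MCF10A at 2.84 ± 0.554 CPM with the empty vector and 3.32 ± 0.0525 with *MALINC1*, and in DCIS.COM at 0.0233 ± 0.0330 and 0. *CSF1R*, the receptor of M-CSF, fell in MCF10A from 23.9 ± 0.509 to 11.8 ± 0.464 CPM (log2 fold change −1.01, limma adjusted p = 0.000499). *ACKR3*, a scavenging receptor of CXCL12, fell in MCF10A from 20.3 ± 2.35 to 6.75 ± 0.715 CPM (−1.58, limma adjusted p = 7.29e-05) and had 0 reads in DCIS.COM. Of 33 other chemokines and colony-stimulating factors 6 were in the table, with none called in MCF10A and 1 lower in DCIS.COM. That gene was *CSF1*, which encodes M-CSF and fell from 15.9 ± 0.263 to 4.33 ± 0.0588 CPM (−1.86, limma adjusted p = 1.91e-07). *CX3CL1*, a membrane-bound chemokine, was at 27.7 ± 0.390 CPM in DCIS.COM pLOC-empty and at 0 reads in MCF10A pLOC-empty, at least 235-fold higher in DCIS.COM. *PPBP* was the only gene between *CXCL1* and *CXCL5* in the cluster that the table held, and was named after its values were seen, at 1.69 and 0.884 CPM in MCF10A, and it was not called (log2 fold change −0.89, limma adjusted p = 0.0351).

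Among 11 measured inducing cytokines and their receptors, of 21 listed, 2 rose in MCF10A and 2 fell in DCIS.COM. Both that fell were interleukin-1 cytokines: *IL1A* went from 20.0 ± 0.838 to 4.59 ± 0.347 CPM (log2 fold change −2.11, limma adjusted p = 7.87e-09) and *IL1B* from 13.0 ± 0.113 to 2.23 ± 0.226 CPM (−2.50, limma adjusted p = 1.96e-06). In MCF10A *IL1A* stood at 10.04 CPM with the empty vector and 13.3 with *MALINC1*, and *IL1B* at 1.51 and 2.75. Both were higher there but short of 2-fold and not called. The log2 fold change was 0.41 for *IL1A* (limma adjusted p = 0.00462) and 0.89 for *IL1B* (limma adjusted p = 0.00489). The genes that rose in MCF10A were *IL1R2*, the decoy receptor of interleukin-1 (1.21 to 6.86 CPM, log2 fold change 2.43), and *IL1RAP*, its accessory chain (28.2 to 62.5 CPM, 1.146). Of these 11 genes, 2 were called higher and 4 lower in DCIS.COM than in MCF10A with the empty vector. *IL1RN*, the interleukin-1 receptor antagonist, was 21.9-fold lower, at 2.55 against 55.7 CPM. *IL1R1*, the receptor itself, was 10.9-fold lower (1.99 against 21.6 CPM), and *IL1B* was 8.59-fold higher. The changes of *IL1RN* and *IL1R1* with *MALINC1* were short of 2-fold and named after their values were seen. *IL1RN* was higher in each line (0.63 for MCF10A, 0.81 for DCIS.COM). *IL1R1* was lower in MCF10A (−0.76), against 0.40 for DCIS.COM (limma adjusted p = 0.0747).

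Of 17 measured NF-κB subunits and feedback genes, of 18 listed, none was called in MCF10A and 2 were lower in DCIS.COM. *BIRC3*, an inhibitor of apoptosis induced by NF-κB, fell from 42.4 to 12.3 CPM (log2 fold change −1.79, SE 0.051), and *TNIP1*, a feedback inhibitor, from 136 to 63.5 CPM (−1.10, SE 0.044). The median log2 fold change of the 17 genes was 0.04 in MCF10A and −0.45 in DCIS.COM. Short of 2-fold in MCF10A, and named after their values were seen, *TNFAIP2* (−0.87) and *NFKBIA* (−0.53) were lower, and *IRAK2* (0.54) and *TNFAIP3* (0.48) higher. All 12 AP-1 and C/EBP factors were measured, and 3 rose in MCF10A while 2 fell in DCIS.COM. *FOSL1* rose from 7.77 to 26.5 CPM (1.76, SE 0.092) and *FOS* from 3.95 to 12.4 CPM (1.63, SE 0.13) in MCF10A. The third to rise, *CEBPA*, was named after its values were seen and went from 0 to 0.188 ± 0.108 CPM. In those pLOC-*MALINC1* libraries 3 reads were worth 0.0836 and 0.113 CPM, so its fitted change depends on the prior count. *FOSL2* fell from 65.9 to 15.1 CPM (−2.12, SE 0.051) and *CEBPD* from 20.7 to 8.49 CPM (−1.28, SE 0.10) in DCIS.COM. The more abundant *JUN*, *FOSL2* and *JUND* went the other way in MCF10A, without reaching 2-fold and named there after their values were seen, with 166 to 88.1 CPM for *JUN* (−0.91, limma adjusted p = 4.18e-07), 137 to 76.7 for *FOSL2* (−0.84, limma adjusted p = 5.81e-08) and 31.8 to 20.2 for *JUND* (−0.65, limma adjusted p = 2.84e-06). In DCIS.COM *JUN* had a log2 value of 0.59 (limma adjusted p = 2.13e-05). *JUN* was 19.7-fold lower in DCIS.COM than in MCF10A with the empty vector, at 8.42 against 166 CPM.

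All 10 mRNA decay genes were measured, a group that includes factors acting on the AU-rich elements and stem-loops of chemokine transcripts. In MCF10A 1 was lower, *DUSP1*, a phosphatase that shuts off p38 signalling (84.2 to 40.7 CPM, log2 fold change −1.05). In DCIS.COM 1 was lower, *ZC3H12A*, which encodes the RNase Regnase-1 (26.5 to 8.12 CPM, −1.70). Short of 2-fold there, and named after their values were seen, *ZFP36L2* and *ZFP36* were higher and *ZFP36L1* lower. The values were 39.3 to 66.2 CPM for *ZFP36L2* (0.75, limma adjusted p = 4.33e-07) and 8.99 to 14.0 CPM for *ZFP36* (0.63, limma adjusted p = 0.000103). For *ZFP36L1* they were 55.7 to 47.9 CPM (−0.22, limma adjusted p = 0.00541). Of 10 proteases that trim or shed chemokines 5 were measured and none was called with *MALINC1* in either line. *ADAM10* and *ADAM17*, the sheddases of membrane chemokines such as CXCL16, were named after their values were seen and had log2 values of −0.071 and −0.073 in MCF10A, and for DCIS.COM −0.21 and −0.25. *MMP7* was 2.56-fold higher in DCIS.COM than in MCF10A with the empty vector, at 45.5 against 17.8 CPM. These lists are described by their counts, with a median for the NF-κB list, and the direction of none of them was tested.

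The genes most like each chemokine across the 8 libraries were found by the root mean square difference of centred log2 CPM, over 13209 genes with a mean of at least 1 CPM. Nearest to *CXCL1* were *SNX10* (0.17), *SLC52A3* (0.20) and the immediate-early gene *EGR1* (0.21). Nearest to *CXCL8* were *GGT6* (0.18), *TNNT1* (0.18) and *ADAMTS1* (0.20), and nearest to *CXCL5* was *G0S2* (0.30). *CCL20* was followed by *S100A4* (0.26), *TMEM45A* (0.35) and *IL1A* (0.41), and *CSF2* by *ADAM8* (0.36). The nearest genes were *TTC39B* for *CXCL2* (0.11), *PDZK1IP1* for *CXCL3* (0.17), *PHLDB3* for *CCL28* (0.13) and *LBHD1* for *CXCL16* (0.03). Between the chemokines themselves, *CXCL1* was 0.48 from *CXCL8*, 1.76 from *CXCL2* and 5.80 from *CXCL5*. The part of the promoter sequence in these distances was not tested. These 8 libraries are only 4 groups, so the likeness rests mainly on 4 levels.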

How the data were processed

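Expression was measured by RNA-seq in 8 libraries, 2 for each line and vector. Per the labels and methods, the authors sequenced 76-nt paired-end reads, aligned them to hg19 with Rsubread, counted UCSC genes with featureCounts and normalized with edgeR. The strand setting, the filter on low genes and the tool versions are not given in the sources used here. Each deposited value is a log2 CPM that includes a prior count of 2, so that a gene without reads stood at 0.0713 CPM. Whole reads were recovered from 100% of values (tolerance 0.1), and printed CPM are these reads over the normalized library size.

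Genes were tested with limma 3.58.1 (R 4.3.3) on the deposited log2 values, with 4 group means over 8 libraries, a trended prior and Benjamini-Hochberg adjustment over 13842 genes. Log2 fold changes and the 2-fold limit are on that scale and understate low genes. Folds printed with a value are ratios of mean CPM, or bounds where a group was at the floor. A group with 3 reads or fewer in every library was taken as at the floor. Replicates differed beyond counting noise (chi-square per degree of freedom 3.30 to 20.6). Levels per kilobase used GENCODE exons in GRCh37.

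The chemokines and related gene lists were chosen with earlier results of these data known. Of each list, up to 3 called genes per comparison that reached 5 CPM in 1 group and had the largest change are eligible to be named, with the 3 nearest genes of each chemokine. The alternatives were other filters, pseudocounts, scalings and thresholds, voom on recovered reads, each line fitted alone, a replicate block and leaving out each library.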

Additional observations from a re-analysis of the deposited data

Results flagged for a closer look

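The response to *MALINC1* differed between the lines in 8 of the 9 genes by the limma test of the difference itself. All were lower in DCIS.COM, beside 5.22% of all genes called lower and 3.98% called higher. The values, DCIS.COM minus MCF10A on the log2 scale, were −1.44 for *CXCL1*, −1.32 for *CXCL2*, −1.64 for *CXCL3*, −1.37 for *CXCL5*, −1.71 for *CXCL8*, −2.82 for *CCL20*, −1.59 for *CCL28* and −4.65 for *CSF2*. For *CXCL5*, DCIS.COM was at 0 reads with both vectors, so the value restates the MCF10A rise, and the call was lost under voom. For *CSF2*, only DCIS.COM with the empty vector was above 3 reads per library. Its value therefore restates the DCIS.COM fall, depends on the prior count and is no bound. *MALINC1* itself was raised 9.97-fold in MCF10A and 17.5-fold in DCIS.COM.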

How the results depend on the processing

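With 2 libraries per group, each result rests on few samples, and *CXCL2*, *CXCL3*, *CCL20*, *CCL28* and *CSF2* rest on at most 104 reads per library, which limits their fold changes. The number of all genes called depended on the rule. In MCF10A it was 761, and 485 among genes with 5 CPM in 2 libraries, 416 at a pseudocount of 1 CPM, 2111 at an adjusted p below 0.05 and 1.5-fold, and 5485 at an adjusted p below 0.01 with any change. In DCIS.COM it was 627, and 368, 1561 and 4592 under the last 3 of these. The looser rules gave 6642 and 10230 between the lines with the empty vector (3959), 6318 and 10102 with *MALINC1* (3686), and 2947 and 4972 for the difference in response (1273).

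The filter at 5 CPM removes *CXCL2*, *CXCL3*, *CCL20*, *CCL28* and *CSF2* from the test, and so left 0 chemokine genes called in DCIS.COM, and 3 each in the difference and in both comparisons of the lines. With the empty vector, the chemokine genes called between the lines went from 5 to 8 under either looser rule, and ranged from 5 to 8 when 1 library was left out, 8 being without MCF10A pLOC-empty library 2. Signs turned for *CXCL3* in MCF10A (−0.041 without pLOC-empty library 1, 0.34 without library 2) and *CXCL8* in DCIS.COM (−0.040 without pLOC-empty library 2, 0.24 without library 1), neither of them called. Calls lost at a pseudocount of 1 CPM were *CXCL3* in DCIS.COM (−0.91) and in the difference (−0.99), and *CCL28* in MCF10A (0.62), between the lines with *MALINC1* (0.90) and in the difference (−0.78). Quantile normalization took *CCL28* between the lines with *MALINC1* to 0.99 and *CXCL3* to −1.38, the latter past the threshold. The *CXCL5* difference was lost under voom (−2.06, limma adjusted p = 0.0199). Over the single chemokine genes and all alternatives, those named here included, 835 values kept their direction and side of the threshold, 19 passed it anew, 10 no longer passed it and 2 turned sign. Many of these could not turn sign. The filters, the looser rules, the block, a fit without the trend and fits of the compared libraries alone leave the log2 fold change as it was. So does leaving out a library of a group not compared.

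Replicate numbers do not pair the libraries (correlation of replicate differences −0.07 to 0.04). With the replicate number as a block, 4, 3, 5, 5 and 8 chemokine genes were called in the MCF10A response, the DCIS.COM response, the lines with the empty vector, the lines with *MALINC1* and the difference, and 759, 634, 3962, 3690 and 1278 of all genes.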
